A study of Homo sapiens with 6 samples.

Results

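NFE2L2, the gene of the transcription factor NRF2, its inhibitor KEAP1 and 7 antioxidant targets, HMOX1, NQO1, GCLC, GCLM, TXNRD1, SRXN1 and OSGIN1, were measured in RNA-seq libraries of MIA PaCa-2, a human pancreatic carcinoma line labelled wild type. The genes were taken by symbol from a given list, and all 9 were found among the 60604 genes of the table. All 9 also passed the filter on low counts. The BP+Huaier group (3 libraries) was given 12.5 µg/ml of black phosphorus (BP), a material built of stacked phosphorus sheets, together with 10 mg/ml of Huaier, a fungal extract used in Chinese medicine. The BP group (3 libraries) received the same dose of BP without Huaier. Both groups thus carried BP, and no BP-free group was analysed here, so the comparison asks what Huaier changed in BP-treated cells. The sources used here give no treatment time. They also do not say whether a group's libraries were separate cultures, so p-values measure only the spread among these libraries, which may be technical.

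NRF2 is made continuously and held low by KEAP1, which bridges it to the CUL3 ubiquitin ligase for degradation. Oxidants and electrophiles modify cysteines of KEAP1, and NRF2 then escapes, pairs with a small MAF protein and binds antioxidant response elements (AREs) near its target genes, where the repressor BACH1 competes for the same sites. Much of this control acts on the protein, so the transcript of NFE2L2 is not a measure of NRF2 activity. The targets make glutathione (GCLC, GCLM), recycle thioredoxin and peroxiredoxins (TXNRD1, SRXN1), reduce quinones (NQO1) and break down heme (HMOX1).

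Total counts on genes lay between 15657593 and 17036565 per library, and 3 counts corresponded to 0.160 to 0.222 CPM (counts relative to library size, scaled by TMM factors). Genes of the mitochondrial genome held 0.0% of counts in every library, so their share gives no measure of RNA quality. The 10 genes with most counts held 8.16%, 8.41% and 6.77% in BP+Huaier 1, 2 and 3, and 6.92% to 7.09% in BP. TMM factors were 0.85, 0.86 and 1.04 in BP+Huaier 1, 2 and 3, and 1.08 to 1.11 in BP. The smallest count of any of the 9 genes was 135, for SRXN1 in BP 2. BP+Huaier 3 stood apart from its group. The first principal component held 72.4% of the variance, with BP+Huaier 1 and 2 at 65.1 and 66.0, BP+Huaier 3 at 11.5, and every BP library between -50.5 and -43.4. The log2 ratio of a library to the BP mean also followed transcript GC content, with r = 0.39, 0.27 and 0.03 in BP+Huaier 1, 2 and 3, across 14896 genes that share the libraries. For BP 1, 2 and 3, each against the other BP libraries, r was 0.03, -0.44 and 0.42. Values of the 9 genes are therefore given with and without BP+Huaier 3 and after removal of the trend on GC content and length, and for other genes where that changed a call. Within-group differences were 3.74 to 74.1 times counting variance, so no library was treated as a duplicate. The epithelial markers KRT8, KRT18 and KRT19 averaged 1329, 771 and 454 CPM in BP+Huaier and 942, 450.5 and 221 CPM in BP, whereas KRT7, EPCAM and CDH1 averaged under 0.2 CPM in both groups. The 6 epithelial markers summed to 1528 to 3219 CPM in the BP+Huaier libraries and 1547 to 1718 CPM in the BP libraries, and their part in the results was not tested. Of the mesenchymal markers, VIM averaged 3463 CPM in BP+Huaier and 3493 CPM in BP, and FN1 0.61 CPM in BP+Huaier and 2.67 CPM in BP. ZEB1 averaged 27.2 CPM in BP+Huaier and 33.5 CPM in BP, and was highest in BP+Huaier 3, at 40.8 CPM. The mesenchymal marker CDH2 had 0 counts in every library, as had PTPRC, CD3E, PRSS1, CELA3A, UMOD and AQP2. COL1A2, a collagen gene listed as a fibroblast marker, averaged 431 CPM in BP+Huaier and 519 CPM in BP. The other fibroblast markers were low and higher in BP+Huaier, COL1A1 at 5.92 CPM in BP+Huaier and 1.34 CPM in BP and PDGFRB at 0.61 CPM in BP+Huaier and 0.18 CPM in BP. Summed over each list, the fibroblast markers (3 genes, nearly all COL1A2) lay at 379 to 483 CPM in the BP+Huaier libraries and 495 to 550.5 CPM in the BP libraries, the leukocyte markers (4 genes) at 21.04 to 34.1 CPM in BP+Huaier and 40.8 to 45.5 CPM in BP, and the endothelial markers (3 genes) at 11.9 to 14.7 CPM in BP+Huaier and 17.6 to 21.1 CPM in BP. These sums were lower in every BP+Huaier library, and their part in the results was not tested either.

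With Huaier added, 5 of the 9 genes rose and none fell. The risers were the targets OSGIN1 (5.83-fold), HMOX1 (3.69-fold), SRXN1 (1.91-fold), NQO1 (1.86-fold) and GCLC (1.53-fold). The targets GCLM and TXNRD1 and the regulators NFE2L2 and KEAP1 did not pass the test. Over all 15022 genes tested, 14.4% were called higher and 15.0% lower at an adjusted p under 0.05, and among protein-coding genes 16.6% and 12.8%. In the edgeR fit of all 6 libraries with TMM factors, none of the 9 was lower at an unadjusted p under 0.05. The same held for DESeq2 and limma-voom on these libraries. GCLM was lower at that level by edgeR without BP+Huaier 3 and with library size alone. The median log2 fold change was 0.62 over the 9 genes and -0.02 over all genes tested. For these 5 risers every BP+Huaier value was above every BP value, where 21.9% of all genes were higher and 24.9% lower without overlap. Leaving out BP 1, BP 2 or BP 3 left 2 of the 9 called, HMOX1 and OSGIN1, where 5.27%, 5.46% and 6.61% of all genes were called higher. Without BP+Huaier 3, KEAP1 joined the risers and 6 of the 9 were called higher, and of all genes 28.8% were then called higher and 31.0% lower. Only HMOX1 and OSGIN1 were called under every one of 15 alternatives that refitted the data. In bulk RNA, a change in the number of responding cells and a change in RNA per cell cannot be told apart.

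**Figure D1:**
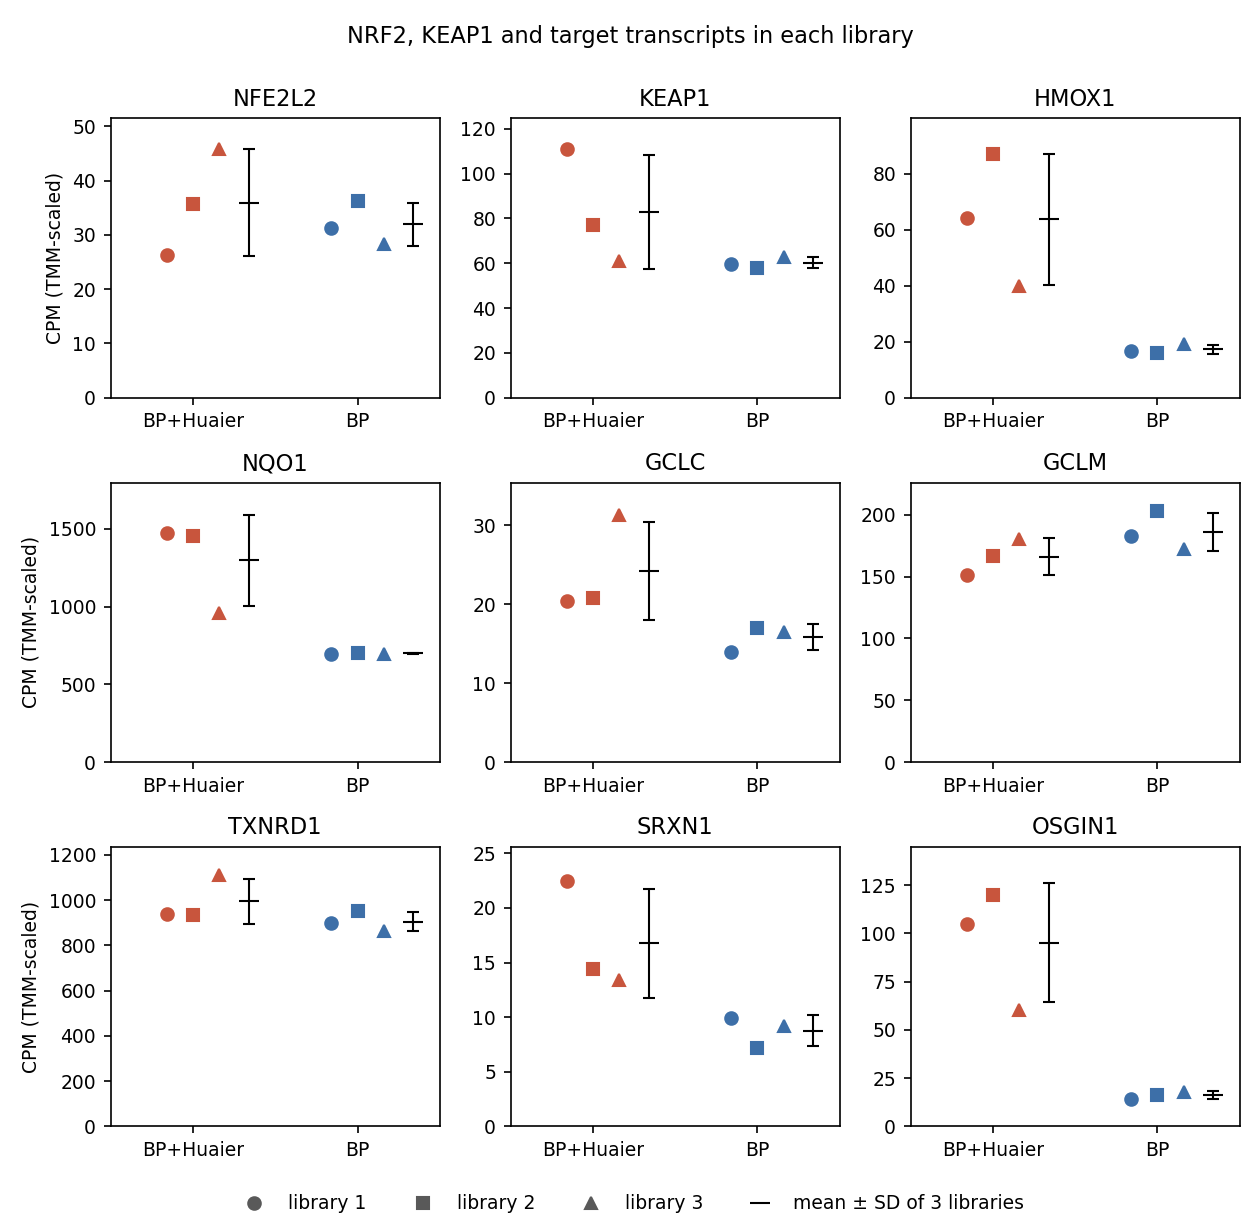
Level of each of the 9 transcripts in CPM (TMM-scaled, linear axis from 0) in each library, with the mean ± SD of the 3 libraries of a group. OSGIN1, HMOX1, NQO1, SRXN1 and GCLC lie above every BP library in all 3 BP+Huaier libraries, and BP+Huaier 3 (triangle) is the lowest of its group for HMOX1, NQO1, SRXN1, OSGIN1 and KEAP1 and the highest for NFE2L2, GCLC, GCLM and TXNRD1.

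NFE2L2 (ENSG00000116044.16, GRCh38 chromosome 2, 177227595 to 177392697, minus strand) encodes NRF2. It stood at 26.3, 35.8 and 45.9 CPM in BP+Huaier 1, 2 and 3, and at 31.2, 36.2 and 28.4 CPM in BP 1, 2 and 3. The BP+Huaier values spanned those of BP on both sides. The log2 fold change was 0.17 ± 0.21 (SE, edgeR adjusted p = 0.55), and it was -0.03 without BP+Huaier 3 (adjusted p = 0.85). After removal of the GC and length trend it was 0.32, again without passing (limma adjusted p = 0.11). Of its exonic bases 18.6% (1054 bases) are shared with ENSG00000213963 on the same strand, a gene with 13 to 48 counts per library, and how reads in shared bases were counted is not given.

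KEAP1 (ENSG00000079999.14, chromosome 19, 10486125 to 10503558, minus strand) encodes the sensor that presents NRF2 for degradation. It had 111, 77.0 and 61.0 CPM in BP+Huaier 1, 2 and 3, and 59.8, 58.0 and 63.0 CPM in BP 1, 2 and 3. BP+Huaier 1 was high, and BP+Huaier 3 lay within the BP range. The log2 fold change of 0.46 ± 0.21 did not pass (edgeR adjusted p = 0.12). Without BP+Huaier 3 it was 0.65 and passed (adjusted p = 8.5e-04), as it did when low-count genes were kept (0.029). After removal of the GC and length trend it was 0.22 (limma adjusted p = 0.19).

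OSGIN1 (ENSG00000140961.14, chromosome 16, 83931311 to 83966332, plus strand), an oxidative-stress-induced regulator of growth, changed most of the 9. It had 105, 120.1 and 60.6 CPM in BP+Huaier 1, 2 and 3, and 14.3, 16.6 and 18.0 CPM in BP 1, 2 and 3. Every BP+Huaier library was more than 3 times the highest BP library. Its log2 fold change of 2.54 ± 0.25 (SE, n = 3 per group; edgeR adjusted p = 8.9e-04) placed it 38th of 15022 genes from the top. It was 2.80 without BP+Huaier 3 and 2.23 with the GC and length trend removed, and adjusted p lay between 2.1e-38 and 0.013 over the alternatives. MLYCD, the neighbour on the same strand, shares 457 of its exonic bases (8.22%) and had 167, 90 and 114 counts in the BP+Huaier libraries against 309, 310 and 318 in the BP libraries.

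The promoter of OSGIN1 is shown because it belongs to the largest riser and holds a match to the ARE core. The core searched was TGANNNNGC, on both strands, in RefSeq promoters of 250 bases before to 50 after the annotated start of transcription (GRCh38.p14), which matched 8 of the 9 genes, all but HMOX1. It was found in 41.8% of 35116 promoters of this length, so a match is frequent, and the stricter core TGACNNNGC was found in 13.3% of them. Of the 11 promoters of these 8 genes, 7 held the wider core and 4 the stricter one, which came to 6 and 3 genes with at least 1 such promoter. In OSGIN1 (chr16:83952990-83953289, plus strand) the capitals mark 2 matches, both read on the minus strand as TGAACTTGC and TGAGTCAGC, which begin 124 and 99 bases before the start; the second also contains TGANTCA, the motif of AP-1 factors.
OSGIN1: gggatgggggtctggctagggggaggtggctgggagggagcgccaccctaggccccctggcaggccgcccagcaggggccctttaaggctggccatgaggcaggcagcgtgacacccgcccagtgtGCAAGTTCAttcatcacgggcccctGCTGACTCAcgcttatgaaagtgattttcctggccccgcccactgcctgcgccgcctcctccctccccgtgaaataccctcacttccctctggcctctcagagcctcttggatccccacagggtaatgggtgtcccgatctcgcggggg

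HMOX1 (ENSG00000100292.18, chromosome 22, 35380361 to 35394214, plus strand) encodes heme oxygenase, which opens the heme ring and releases iron. It had 64.3, 86.8 and 39.8 CPM in BP+Huaier 1, 2 and 3, and 16.6, 15.96 and 19.0 CPM in BP 1, 2 and 3. The lowest BP+Huaier library was above 2 times the highest BP library. On the log2 scale HMOX1 changed by 1.89 ± 0.26 (SE, n = 3 per group; edgeR adjusted p = 0.0021), 107th of all genes from the top. It was 2.14 without BP+Huaier 3 and 1.73 once the trend on GC content and length was taken out. The adjusted p lay between 3.5e-21 and 0.021 over the alternatives.

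NQO1 (ENSG00000181019.13, chromosome 16, 69706996 to 69726668, minus strand) encodes a reductase that turns quinones into hydroquinones. It had 1476, 1456 and 959 CPM in BP+Huaier 1, 2 and 3, and 696, 703 and 698 CPM in BP 1, 2 and 3. The coefficient of variation was 22.6% in BP+Huaier and 0.51% in BP. NQO1 changed by 0.89 ± 0.19 on the log2 scale (SE, edgeR adjusted p = 0.0095), and 1.08 without BP+Huaier 3. With the GC and length trend removed it was 1.06 (limma adjusted p = 0.0027). Leaving out any 1 of the BP libraries ended the call, with adjusted p = 0.053 (BP 1), 0.054 (BP 2) and 0.052 (BP 3). Of its exonic bases 575 lie opposite ENSG00000261602, which had 0 counts in every library. Its promoter (chromosome 16, GRCh38.p14) held 1 match to the wider core, shown with the bases around it and read on the minus strand.
NQO1: tcctggagctGCAGCCTCAgcatcctccg

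SRXN1 (ENSG00000271303.2, chromosome 20, 646615 to 653200, minus strand) encodes sulfiredoxin, which restores over-oxidised peroxiredoxins. It had 22.5, 14.4 and 13.4 CPM in BP+Huaier 1, 2 and 3, and 9.94, 7.18 and 9.21 CPM in BP 1, 2 and 3. All BP+Huaier libraries were higher, BP+Huaier 1 most. SRXN1 changed by 0.93 ± 0.24 on the log2 scale (SE; edgeR adjusted p = 0.019), and the call ended when BP 1, BP 2 or BP 3 was left out (0.052, 0.091 and 0.062) or TMM factors were not used (0.063). It was 1.09 without BP+Huaier 3. Another gene on the same strand, ENSG00000270299, covers 90.7% of its exonic bases and leaves 236 to SRXN1 alone, and it had at most 4 counts in any library. Whether reads in the shared bases were counted is not given, so the level of SRXN1 and its rank among the 9 genes are uncertain.

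GCLC and GCLM encode the catalytic and the modifier subunit of glutamate-cysteine ligase, the rate-limiting enzyme of glutathione synthesis, and they did not move alike. GCLC (ENSG00000001084.13, chromosome 6, 53497341 to 53616970, minus strand) had 20.5, 20.8 and 31.4 CPM in BP+Huaier 1, 2 and 3, and 14.0, 17.03 and 16.5 CPM in BP 1, 2 and 3. The groups did not overlap, and BP+Huaier 3 was the highest. The change was 0.62 ± 0.20 on the log2 scale (SE; edgeR adjusted p = 0.046), just inside the threshold. It was 0.40 without BP+Huaier 3 (adjusted p = 0.023) and 0.89 with the GC and length trend removed (limma adjusted p = 9.4e-04). The call ended when BP 1, 2 or 3 (0.17, 0.11 and 0.0996) or BP+Huaier 2 (0.068) was left out, without TMM factors (0.29) and under a 5 CPM filter (0.10).

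GCLM (ENSG00000023909.10, chromosome 1, 93885199 to 93909456, minus strand) had 151, 166 and 181 CPM in BP+Huaier 1, 2 and 3, and 183, 203 and 172 CPM in BP 1, 2 and 3. The groups overlapped. The log2 fold change was -0.16 ± 0.14 (SE; edgeR adjusted p = 0.38), and its sign turned, to 0.16, once the trend on GC content and length was taken out, again without passing (limma adjusted p = 0.27). Without BP+Huaier 3 the log2 fold change of GCLM was -0.22 (edgeR unadjusted p = 0.048, adjusted p = 0.075). With library size alone it was -0.42 (edgeR unadjusted p = 0.030, adjusted p = 0.083). The promoter of GCLM (chr1:93909381-93909680, minus strand, GRCh38.p14) is shown beside that of OSGIN1. It was chosen because it holds the stricter core in a target that did not pass the test. The capitals mark TGACTAAGC, the stricter core, and TGAGGGAGC, both read on the minus strand of the printed sequence and beginning 34 and 8 bases before the start.
GCLM: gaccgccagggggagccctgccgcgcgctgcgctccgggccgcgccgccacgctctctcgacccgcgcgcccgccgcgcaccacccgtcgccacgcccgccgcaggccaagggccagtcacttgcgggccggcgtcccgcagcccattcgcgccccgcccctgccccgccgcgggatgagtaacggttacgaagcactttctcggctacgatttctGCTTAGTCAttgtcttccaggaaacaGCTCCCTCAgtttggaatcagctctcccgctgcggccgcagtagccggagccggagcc

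TXNRD1 (ENSG00000198431.16, chromosome 12, 104215779 to 104350307, plus strand) encodes the cytosolic thioredoxin reductase. It had 939, 934 and 1111 CPM in BP+Huaier 1, 2 and 3, and 901, 950.05 and 866 CPM in BP 1, 2 and 3. BP+Huaier 3 was above the BP libraries and the other two lay among them. TXNRD1 differed by 0.14 ± 0.14 on the log2 scale (SE; edgeR adjusted p = 0.50) and 0.06 without BP+Huaier 3. With the trend on GC content and length taken out it was 0.37 and passed (limma adjusted p = 0.035), the only one of 15 alternatives under which it did. The stricter core stood at 3 places in its 2 promoters and at 2 in a promoter of KEAP1, shown with 10 bases on each side because these 2 genes and GCLM, the 3 with the stricter core, were among those that did not pass. The second KEAP1 match is the same 9 bases as that of GCLM.
TXNRD1, promoter 1, site 1: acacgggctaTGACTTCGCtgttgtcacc
TXNRD1, promoter 1, site 2: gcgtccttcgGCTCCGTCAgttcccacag
TXNRD1, promoter 2: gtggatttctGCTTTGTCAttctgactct
KEAP1, site 1: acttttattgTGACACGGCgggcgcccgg
KEAP1, site 2: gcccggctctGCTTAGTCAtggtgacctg
Neither core was found in the promoters of GCLC and SRXN1, which says only that these letters are not in that window.

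The 9 genes differed in how BP+Huaier 3 stood to the other libraries of its group. Relative to the mean of BP+Huaier 1 and 2, BP+Huaier 3 was at 0.53 for HMOX1, 0.54 for OSGIN1, 0.65 for KEAP1, 0.65 for NQO1 and 0.73 for SRXN1. It was at 1.52 for GCLC, 1.48 for NFE2L2, 1.19 for TXNRD1 and 1.14 for GCLM. The 5 genes with less in BP+Huaier 3 had a GC content of the longest transcript between 46.0% and 63.5%, and the 4 with more had one between 37.3% and 45.6%. Of the tested genes the median GC content was 49.4%. Set against limma-voom, the log2 fold change from limma after removal of the trend on GC content and length was higher for the 4 genes with the lower GC content and for NQO1. It was lower for OSGIN1, HMOX1 and KEAP1, and SRXN1 stood at 0.91 after removal and 0.90 by limma-voom. Limma-voom weights the counts and the fit after removal does not, so these shifts are not those of the removal alone. Beyond that removal, the part of GC content in these differences was not tested. Under it 6 of the 9 genes were called higher, the same 5 risers and TXNRD1, while 25.0% of all genes were called higher and 15.8% lower in that fit.

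**Figure D2:**
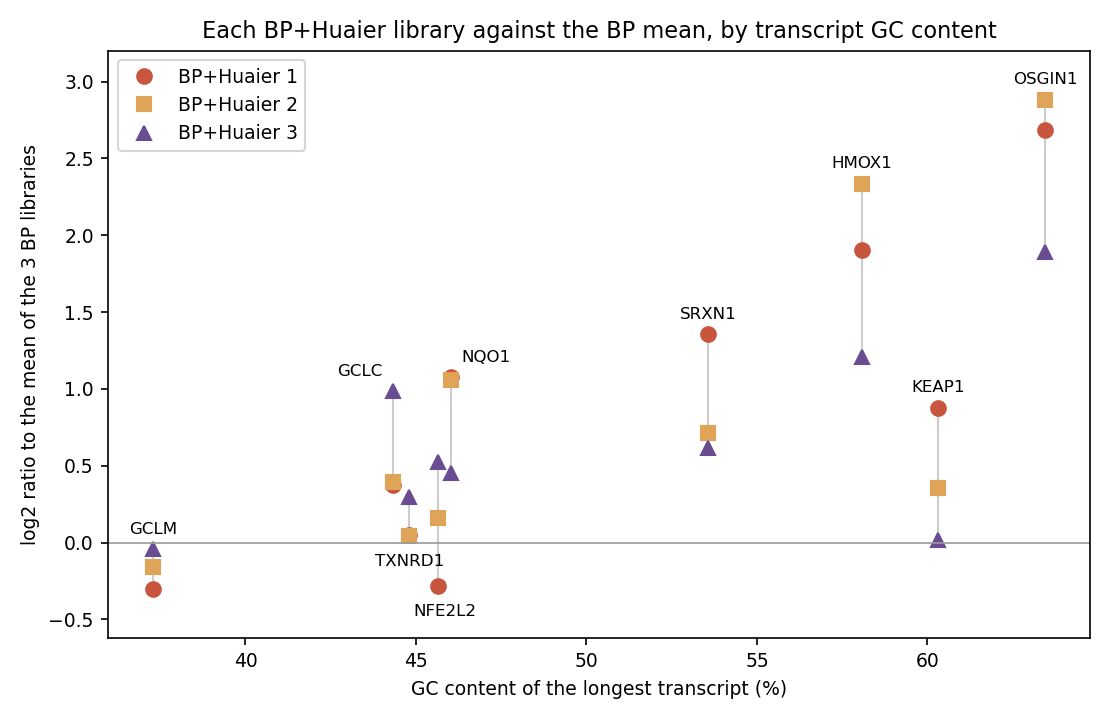
Log2 ratio of each BP+Huaier library to the mean of the 3 BP libraries (y axis) for each of the 9 genes, placed by the GC content of its longest transcript in percent (x axis). BP+Huaier 3 (purple triangle) is the highest of the 3 for the 4 genes below 46% and the lowest for the 5 above, and OSGIN1, HMOX1, NQO1, SRXN1 and GCLC are above 0 in all 3 libraries.

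**Figure D3:**
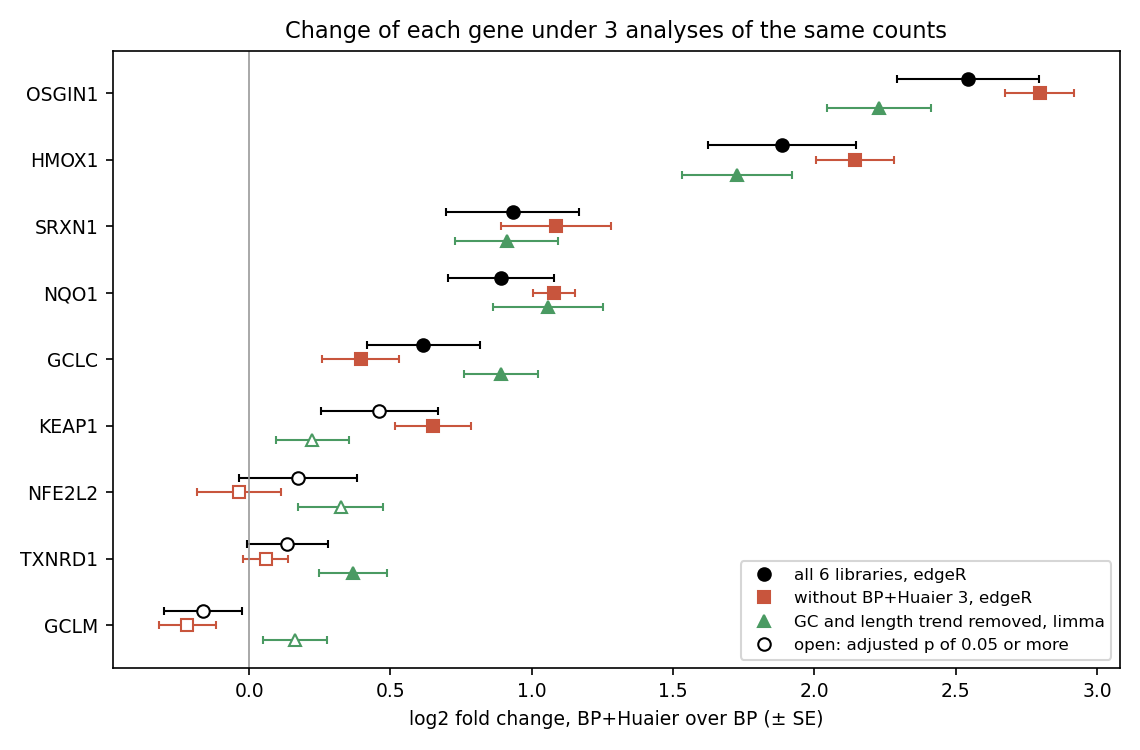
Log2 fold change of BP+Huaier over BP (x axis, bars ± SE) for each gene from all 6 libraries, without BP+Huaier 3, and after removal of the GC and length trend; filled symbols passed an adjusted p of 0.05. The 5 risers are filled in all 3 analyses, KEAP1 only without BP+Huaier 3 (0.65), TXNRD1 only after trend removal (0.37), and NFE2L2 and GCLM in none.

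Ratios of 2 transcripts in the same library are free of the scaling of that library. GCLM counts per GCLC count were 7.37, 7.99 and 5.76 in BP+Huaier 1, 2 and 3, against 13.1, 11.9 and 10.5 in BP 1, 2 and 3. The groups did not overlap, and the mean log2 ratio was 2.80 ± 0.25 in BP+Huaier and 3.56 ± 0.16 in BP (SD, n = 3 each; exact permutation test, two-sided, p = 0.10). For HMOX1 over NQO1 the log2 ratio was -4.39 ± 0.28 in BP+Huaier and -5.35 ± 0.14 in BP, for OSGIN1 over NQO1 it was -3.80 ± 0.19 in BP+Huaier and -5.43 ± 0.16 in BP, and for SRXN1 over TXNRD1 it was -5.92 ± 0.50 in BP+Huaier and -6.70 ± 0.30 in BP (exact permutation p = 0.10 for each). NFE2L2 over KEAP1 overlapped, at -1.20 ± 0.84 in BP+Huaier and -0.92 ± 0.24 in BP (exact permutation p = 0.80). With 3 libraries against 3 no exact p can fall below 0.10, and adjusted over the 5 pairs the smallest was 0.125 (exact permutation test), so none of these differences can pass 0.05. Without BP+Huaier 1 the sign of the NFE2L2 and KEAP1 difference turned to 0.16.

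**Figure D4:**
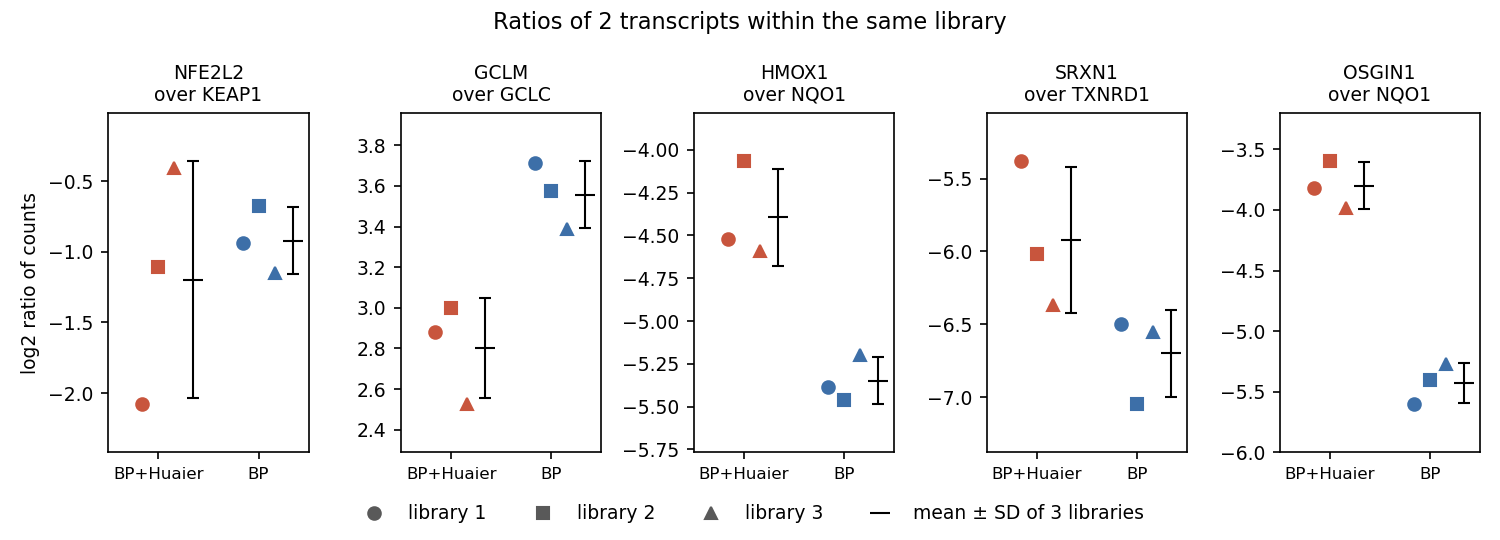
Log2 ratio of the counts of 2 genes within each library, for 5 pairs, with the mean ± SD of the 3 libraries of a group; each panel has its own axis. The groups are apart for GCLM over GCLC (lower in BP+Huaier) and for HMOX1 over NQO1, SRXN1 over TXNRD1 and OSGIN1 over NQO1 (higher in BP+Huaier), and they overlap for NFE2L2 over KEAP1.

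Per length, in TPM (length-scaled transcript abundance, computed from the counts and the exonic length and not scaled by TMM, used here only for the order within a group), NQO1 was the most abundant of the 9, at 1448 ± 108 TPM in BP+Huaier and 1009.8 ± 27.7 TPM in BP (SD, n = 3). TXNRD1 followed at 511 ± 145 TPM in BP+Huaier and 579.5 ± 40.6 TPM in BP. GCLC was the least abundant, at 9.86 ± 4.38 TPM in BP+Huaier and 7.88 ± 0.84 TPM in BP. OSGIN1 was next to last in BP at 12.6 ± 1.28 TPM, where its range overlapped that of SRXN1, and stood at 56.2 ± 11.1 TPM in BP+Huaier, above NFE2L2 and SRXN1. HMOX1, at 90.6 ± 23.4 TPM in BP+Huaier, overlapped GCLM above it and KEAP1 below it, whereas in BP, at 32.0 ± 2.19 TPM, it was below KEAP1 without overlap. In BP+Huaier the ranges of KEAP1 and OSGIN1, and those of NFE2L2 and SRXN1, overlapped as well.

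The rest of the pathway was read from 10 lists by role. The lists were chosen with earlier results of these data known, so their shares are not an independent test. They hold genes that oppose NRF2 as well as its targets, 85 genes beside the 9. Of these, 80 were tested, 28 rose (35.0%) and 5 fell (6.25%), with a median log2 fold change of 0.37, against 14.4% and 15.0% of all tested genes and a median of -0.02. With BP 1, BP 2, BP 3 or BP+Huaier 2 left out 13, 14, 15 and 15 rose and at most 1 fell, where 5.27% to 6.61% of all genes were called higher and 5.92% to 6.84% lower. With BP+Huaier 1 left out 24 rose and 3 fell, against 11.4% and 11.8% of all genes, and without BP+Huaier 3 45 rose and 13 fell, against 28.8% and 31.0%. The transcripts of the small MAF proteins, the partners with which NRF2 binds DNA, all rose. MAFF averaged 221 ± 112 CPM in BP+Huaier and 29.3 ± 0.67 CPM in BP (SD, n = 3 each), a 7.54-fold rise, MAFG rose 3.13-fold and MAFK 3.10-fold. NFE2L1, a relative of NFE2L2, rose 1.45-fold, so that 4 of 7 tested partners and competitors rose. BACH1, the repressor that competes for AREs, had 21.4, 25.4 and 46.8 CPM in BP+Huaier 1, 2 and 3 against 33.8, 39.9 and 31.7 CPM in BP 1, 2 and 3, and did not pass (log2 fold change -0.17, edgeR adjusted p = 0.66), although it was called lower without BP+Huaier 3 (-0.57, 0.0025).

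Transcripts of the genes listed as KEAP1 competitors were mixed in direction. SQSTM1, the p62 adaptor that can sequester KEAP1, had 1027, 963 and 584 CPM in BP+Huaier 1, 2 and 3, against 280, 282 and 311 CPM in BP 1, 2 and 3, a 2.95-fold rise (edgeR adjusted p = 0.0021), with 21.0% of its exonic bases opposite MRNIP. CDKN1A, the cell-cycle inhibitor p21, rose 6.44-fold, at 20.9 ± 7.73 CPM in BP+Huaier and 3.24 ± 0.25 CPM in BP (SD, n = 3 each). SESN2 rose 2.21-fold, while AMER1 fell by 0.69 on the log2 scale, and 5 of the 9 in this list did not pass. Among 11 ligase and degradation genes the kinase GSK3A (1.83-fold), the ubiquitin ligase SYVN1 (1.52-fold) and the adaptor DCAF11 (1.49-fold) rose, the scaffold CUL1 fell 1.53-fold and 7 did not pass. CUL3, the scaffold of the KEAP1 ligase, averaged 49.8 ± 7.27 CPM in BP+Huaier and 65.9 ± 9.02 CPM in BP (edgeR adjusted p = 0.090), and was called lower without BP+Huaier 3 (0.0026).

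In the list of heme and iron handling 4 of 7 genes rose. FTL, the light chain of ferritin, had 12011, 12117 and 6861 CPM in BP+Huaier 1, 2 and 3 against 4744, 5014 and 5051 CPM in BP 1, 2 and 3, a 2.09-fold rise. FTH1, the heavy chain, rose 1.75-fold, the heme transporter SLC48A1 1.91-fold and the biliverdin reductase BLVRB 1.80-fold. Ferritin genes have many processed copies, and 63.2% of FTH1 exonic bases lie opposite BEST1, so their values are uncertain. In NADPH supply 3 of 6 genes rose, among them TKT (2.17-fold) and PGD (1.596-fold), enzymes of the pentose phosphate pathway, and 3 did not pass. The thioredoxin list was drawn by role and not by control through NRF2, and 3 of its 4 genes rose. These were TXNIP (2.84-fold), which inhibits thioredoxin, PRDX1 (1.42-fold) and TXN (1.34-fold). TXN averaged 253 ± 26.0 CPM in BP+Huaier and 189 ± 9.69 CPM in BP. Of PRDX1 exonic bases 29.8% lie opposite MMACHC.

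Of 13 glutathione genes tested beside GCLC and GCLM, only GSR, the glutathione reductase, rose, 1.59-fold, and 12 did not pass. SLC7A11, the cystine importer that feeds glutathione synthesis, was low, at 0.49, 0.89 and 2.48 CPM in BP+Huaier 1, 2 and 3 against 1.98, 2.02 and 2.89 CPM in BP 1, 2 and 3 (log2 fold change -0.79, edgeR adjusted p = 0.25). Without BP+Huaier 3, SLC7A11 was called lower, at -1.72 (edgeR adjusted p = 0.0019). In quinone and carbonyl detoxification 4 of 12 rose, AKR1C1 (2.89-fold), AKR1C2 (2.08-fold), AKR1B1 (1.80-fold) and the epoxide hydrolase EPHX1 (1.58-fold), and the aldehyde dehydrogenase ALDH1A1 fell by 0.52 on the log2 scale, a call that ended after removal of the GC and length trend (-0.23, limma adjusted p = 0.23). AKR1C1 and AKR1C2 are near-identical paralogs that can share reads. Of 5 export pumps, ABCC2 fell 1.91-fold and ABCC4 fell 1.54-fold, and 3 did not pass. DESeq2 called 2 of the 5 pumps higher and 2 lower, where it called 2760 of all genes higher and 2434 lower. The ABCC4 call also ended after removal of the GC and length trend (log2 fold change -0.30, limma adjusted p = 0.054). Of 9 further targets 6 rose, SQSTM1, MAFG, SESN2, GDF15 (12.5-fold), the taurine transporter SLC6A6 (1.82-fold) and TRIM16 (1.47-fold). Of all 33 calls in the lists, 33 held without BP+Huaier 3 and 31 after removal of the GC and length trend. Leaving out BP 1, BP 2 or BP 3 kept 14, 14 and 16 of them, BP+Huaier 1 left out kept 25 and BP+Huaier 2 left out kept 15. In all, 13 held under every one of the 15 alternatives, among them MAFF, MAFG, MAFK, SQSTM1, AKR1C1, TXNIP and SLC48A1.

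**Figure D5:**
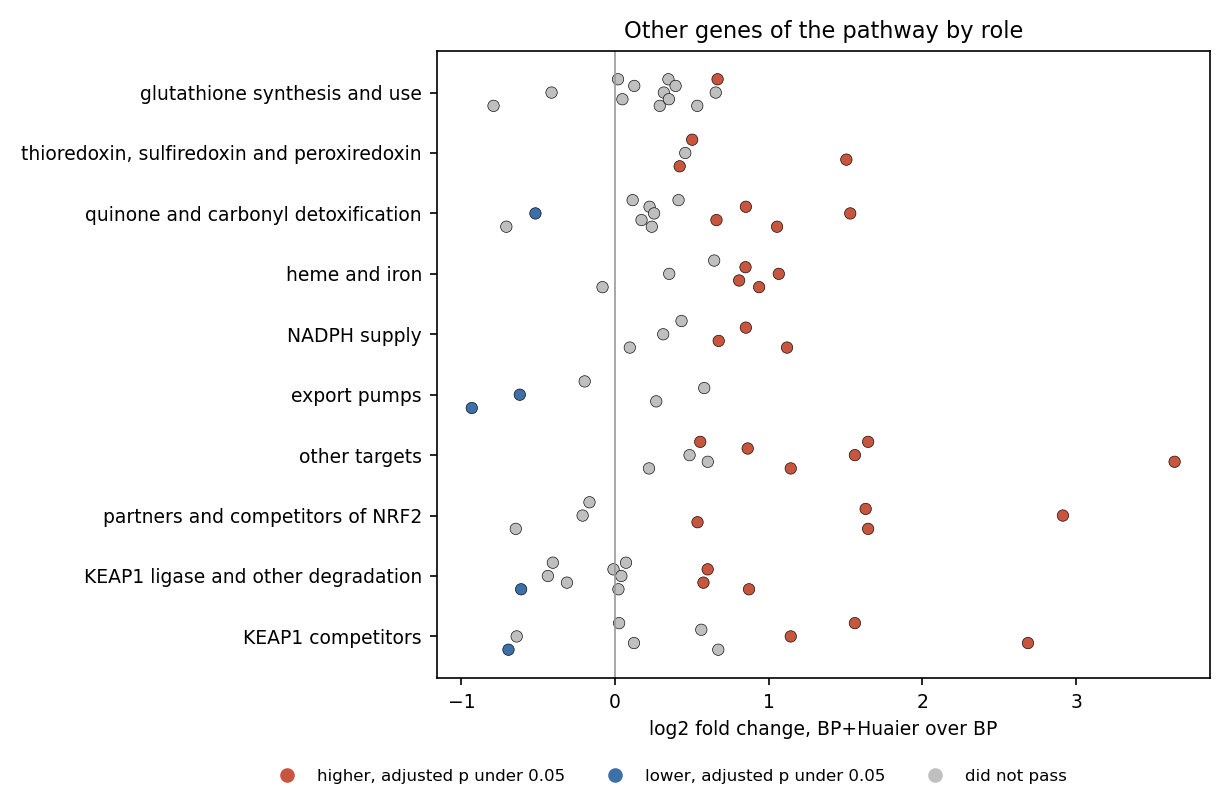
Log2 fold change of BP+Huaier over BP for each tested gene of 10 lists beside the 9 genes, with calls at an adjusted p under 0.05 in colour; vertical spread within a list only separates points, and 3 genes stand in 2 lists. Calls are to the right of 0 except ABCC2 and ABCC4 among export pumps, ALDH1A1, CUL1 and AMER1.

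Across the 6 libraries the genes most like NFE2L2 in log2 CPM included OIP5-AS1 (Pearson r = 0.99), WDR47, ZNF331 and DNTTIP2, out of 10502 genes of at least 5 CPM. None of these 4 passed the test between groups, and in each BP+Huaier 3 was the highest library. The genes most like the mean standardised profile of the 7 targets were FAM72D, LINC03061, KAT7, SLC17A5 and SPRY1, each with r of at least 0.995. This mean pools targets with r as low as -0.89 (GCLM and SRXN1), so it need not follow any single target. Such r are the highest of 10502 genes over 6 libraries that share the group difference, and they were not tested. SPRY1 had 80.6, 87.8 and 87.5 CPM in BP+Huaier 1, 2 and 3 against 41.4, 46.7 and 41.6 CPM in BP 1, 2 and 3. HMOX1, by contrast, had 64.3, 86.8 and 39.8 CPM in BP+Huaier 1, 2 and 3. FAM72D has near-identical paralogs, so its own level is uncertain. Among the 9 genes themselves, r was 0.99 for HMOX1 and OSGIN1 and 0.98 for HMOX1 and NQO1. NFE2L2 had r of 0.06 with HMOX1, -0.54 with KEAP1 and 0.82 with TXNRD1. GCLM ran against several targets, with r of -0.74 for HMOX1, -0.77 for NQO1, -0.89 for SRXN1 and -0.71 for OSGIN1. With the same genes in that order KEAP1 had r of 0.73, 0.84, 0.89 and 0.74. All of these r are over the same 6 libraries, which share the group difference.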

How the data were processed

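RNA sequencing of 6 MIA PaCa-2 libraries gave a table of whole-number counts per gene, deposited without normalization. Per the submitters' processing notes, fastp 0.20.0, HISAT2 2.1.0 and featureCounts 1.6.1 were used with build GRCh38. The sources used here do not give the annotation release or how strand, multi-mapped reads and overlapping genes were handled. Left out were 44 second copies of pseudoautosomal genes, at 0 counts, and 1 gene broken over 3 lines. Columns were mapped by sample title, symbols by a table of gene names (99.77% of IDs), and GC content by GENCODE release 29.

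Counts were tested in R 4.3.3 with edgeR 4.0.16 (filterByExpr, TMM, robust quasi-likelihood test, group as the only term) over 15022 genes, with Benjamini-Hochberg adjustment over all of them and a threshold of 0.05. Standard errors are those the test implies. Every p printed for a gene comes from this fit unless another is named. Alternatives included DESeq2 1.42.0, limma 3.58.1 (voom, also with a spread for each group), other scalings and filters, the replicate block, each library left out, and a fit after subtracting a smooth curve on GC content and transcript length from each library. Steps were tested on simulated data. Ratios used exact permutation tests in scipy 1.17.1; figures used matplotlib 3.10.9.

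The genes and lists were chosen with earlier results of these data known. All 9 genes were named, and from each wider list up to 3 called genes with the largest change above 5 CPM, always with SQSTM1, BACH1, MAFG, CUL3, TXN and SLC7A11. Some genes the rules name are not reported here, though they enter the counts. ALDH1A1, EPHX1, FTH1, SLC6A6, TRIM16, NFE2L1, DCAF11 and AMER1 were named after their values were seen.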

Additional observations from a re-analysis of the deposited data

How the results depend on the processing

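Calls depended on which libraries entered. Leaving out 1 library at a time gave 810 to 4452 higher and 909 to 4793 lower genes, 2 to 6 higher and 0 lower among the 9 genes, and 13 to 45 higher and 0 to 13 lower in the wider lists, with the most in the wider lists without BP+Huaier 3 and only HMOX1 and OSGIN1 called of the 9 without BP 1, BP 2 or BP 3. Scaling by library size alone gave 1051 higher genes, 3 higher of the 9 and 8 lower in the wider lists, and the median log2 fold change became -0.28. At an adjusted p under 0.01 there were 826 higher and 810 lower genes, 3 of the 9 higher, and 14 higher and 1 lower in the wider lists. With genes of at least 5 CPM 1357 were lower. With the GC and length trend removed 3727 genes were higher, 3 genes of the wider lists were lower, and GCLM (0.16), BACH1 (0.13) and CUL3 (0.082) turned positive without being called. NFE2L2 turned to -0.065 and TXNRD1 to -0.12 with library size alone, and with 1 library left out NFE2L2 ranged from -0.035 to 0.36 and BACH1 from -0.57 (called, without BP+Huaier 3) to 0.052; none of the reversed values was called. Replicate numbers shared no deviations (r = 0.01, -0.06 and -0.28, and 0 of 6 libraries correlated best with their own number), so the labels share only a number; with the replicate number as a block 1357 genes were higher, 4 of the 9 (all risers but GCLC, adjusted p = 0.069), and 2 of the wider lists lower. The difference of NFE2L2 over KEAP1 ranged from -0.67 to 0.16 with 1 library left out. The ARE core stood in 35.2% of promoters in the 250 bases before the start, and the stricter core in 13.3% of full windows and 10.9% of the 250 bases. The cause of these changes was not tested. There were 3 samples per group, and differences within a group were 3.74 to 74.1 times counting variance.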
